A study of Homo sapiens with 6 samples.

Results

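The signaling chain studied here comprises 46 genes that encode the core of the PI3K, AKT and mTOR pathway. They were chosen by name, with earlier results of these data known. They cover lipid kinases, lipid phosphatases, AKT and its partners, mTOR complex members, their upstream switches and their outputs. All 46 were listed among the 60676 genes of the count table, and all 46 were among the 16785 genes tested. RNA was sequenced from TC71, a human Ewing sarcoma (EWS) cell line, carrying a doxycycline (Dox)-inducible lentiviral shRNA that was either non-targeting (shNTC+Dox) or directed against EHD1 (shEHD1+Dox). Both lines received 0.5 µg/ml Dox for 3 days, and each contributed 3 libraries. EHD1 is an endocytic recycling protein that the study linked to surface delivery of IGF-1R, a receptor tyrosine kinase upstream of PI3K. The comparison therefore asked whether the transcripts of this pathway differed between the EHD1-depleted and the control line. These are separately transduced lines, and every library had Dox. EHD1 loss, differences between lines and other effects of the shRNA therefore cannot be told apart. Which EHD1 shRNA the libraries carried, and whether the replicates were separate cultures, is not given in the sources used here, so the p-values measure only the spread between these libraries, which may be technical.

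Activated receptors recruit class I PI3K through adaptors, and the kinase makes the membrane lipid PIP3, which docks PDPK1 and AKT so that AKT becomes phosphorylated. AKT in turn inhibits the TSC complex, which frees RHEB to activate mTORC1 on the lysosome, where the RAG GTPases report the amino acid supply, and mTORC1 then drives translation through S6 kinases and 4E-BP proteins. The pathway is regulated largely by phosphorylation, lipid turnover and protein location, none of which was measured by these libraries.

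EHD1 itself had 713, 775 and 589 counts in shNTC+Dox replicates 1, 2 and 3 and 215, 175 and 290 counts in shEHD1+Dox, so the groups were well apart. In CPM, the read count scaled to library size after TMM normalization, it went from 27.2 ± 0.81 to 8.02 ± 1.18 (SD, n = 3), which left 29.6% (log2 fold change -1.76, SE 0.12, edgeR adjusted p = 0.000135). Total counts ran from 22711235 to 30582187 per library. shNTC+Dox replicate 3 had the fewest counts. It stood apart from the other 2 control libraries on the second principal component (-38.7 against 32.8 and 29.1, 22.0% of the variance). On the same component shEHD1+Dox replicate 2 lay at -24.2, against 2.09 and -1.01 for replicates 1 and 3 of its group. On the first component (40.8%) shNTC+Dox replicate 3 lay at -55.2, against -23.9 and -21.3 for the other controls. All 8 Ewing sarcoma markers were detected well enough to be tested, and CD99 was higher (log2 fold change 0.33) and STEAP1 lower (-0.43) in shEHD1+Dox, while the other 6 were not called. None of 5 lymphoid and myeloid markers was tested, 2 of 5 epithelial markers were (KRT8 and KRT18), and 5 of 6 fibroblast markers were, with COL3A1 higher (log2 fold change 0.89) and DCN lower (-1.01). The fibroblast marker PDGFRA and the epithelial marker KRT5 were at or near 0 in every library, and the part of these markers in the results below was not tested.

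EHD1 depletion was accompanied by small differences in a minority of the pathway's transcripts. At an adjusted p under 0.05 in edgeR's quasi-likelihood test, 8 of the 46 genes were called (17.4%), against 17.3% of all genes tested, so the share of called members was near the background. The direction was uneven. In all, 7 genes rose in shEHD1+Dox (15.2% of the members, against 8.59% of all genes), namely PIK3CA, PIK3CB, INPP4B, EIF4EBP2, GSK3B, PHLPP1 and GAB1, and 1 gene, SHC1, fell (2.17%, against 8.75%). No member passed both the adjusted p and a 2-fold change in edgeR or in DESeq2 (0 of 46, against 2.82% of all genes in edgeR). An unadjusted p under 0.05 in edgeR was reached by 13 of the 46 members, against 5428 of the 16785 genes tested. Leaving out 1 library moved the number of called members to 4 without shEHD1+Dox replicate 1 or replicate 2, to 5 without shNTC+Dox replicate 1 or shEHD1+Dox replicate 3, to 7 without shNTC+Dox replicate 2 and to 12 without shNTC+Dox replicate 3, while the share of all genes called moved between 7.74% and 21.5%. In these bulk samples, fewer cells expressing a gene and less of its RNA per cell cannot be told apart.

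Over all 46 genes the median log2 fold change was 0.03, beside 0.000799 for all genes tested, and the median absolute log2 fold change was 0.12, beside 0.23. Values lay above 0 for 25 members and below 0 for 21. The 3 shEHD1+Dox libraries did not overlap the 3 shNTC+Dox libraries for 18 members (39.1%, against 39.3% of all genes), with shEHD1+Dox above in 12 of them (all genes 19.9%) and below in 6. The 46 genes summed to 5220.5 CPM in shNTC+Dox, against 5202 CPM in shEHD1+Dox. RPS6 alone held 1848 and 1793 CPM of these sums, a larger drop than that of the sums. The other members together were therefore not lower. Replicates were close for most members, with a median coefficient of variation of 6.11% in shNTC+Dox, against 6.76% in shEHD1+Dox, beside 11.6% and 8.94% over all genes tested. For 13 members, none of them called, the 95% interval of the fold lay wholly within 1.2-fold of no change.

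**Figure D1:**
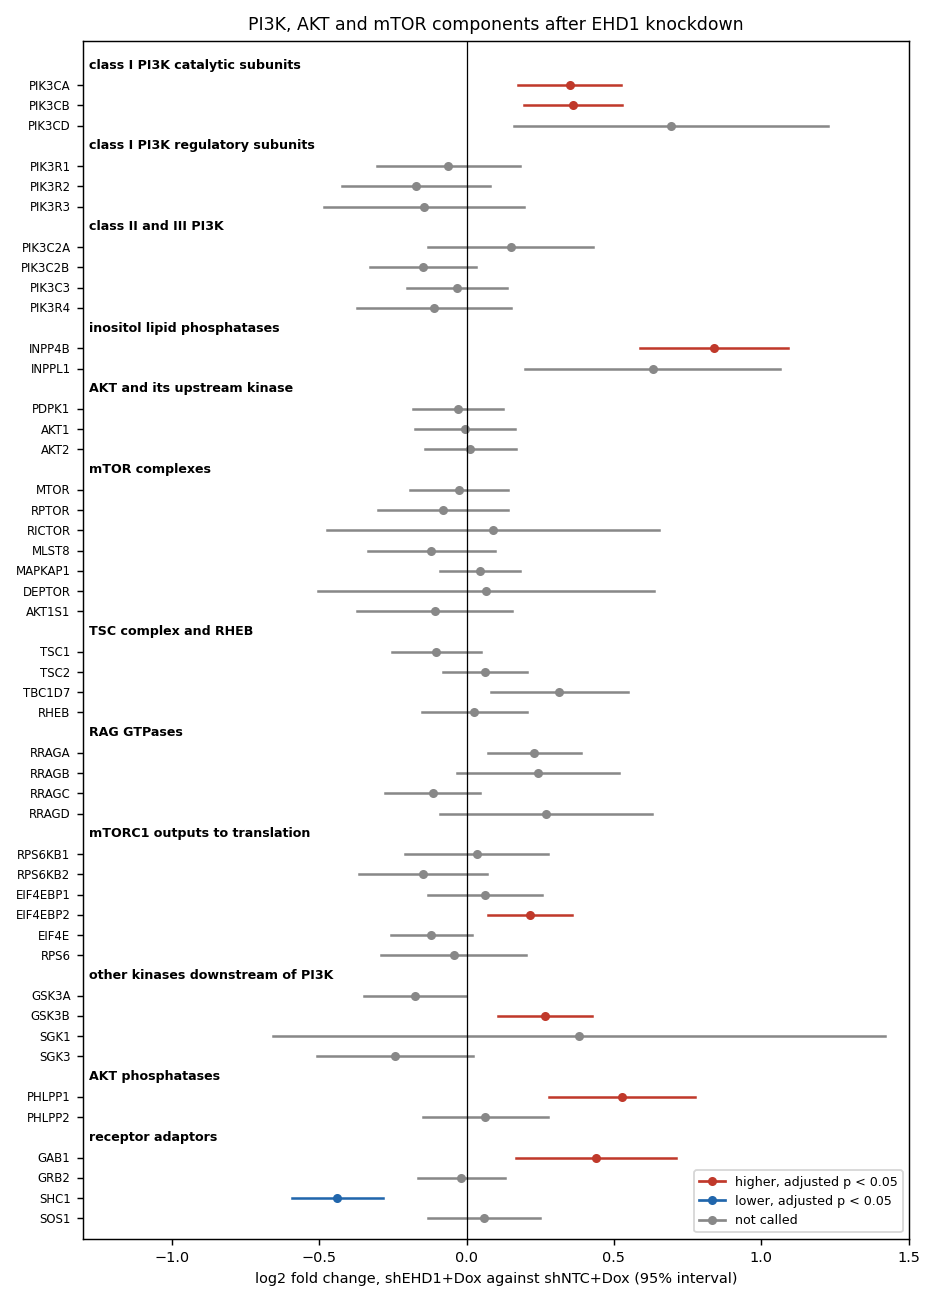
Log2 fold change (shEHD1+Dox over shNTC+Dox, horizontal axis) of the 46 genes grouped by role, with 95% intervals from edgeR and called genes in color. INPP4B lies farthest to the right at 0.84 and SHC1 farthest to the left at -0.44, and most of the AKT, mTOR and TSC rows straddle 0.

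Among the class I lipid kinases, which come first in the chain, 2 of the 3 catalytic subunit genes in the list rose. None of its 3 regulatory subunit genes was called. PIK3CA (chr3:179148114-179240093), which encodes the p110α catalytic subunit of class I PI3K, had 59.0, 59.9 and 53.7 CPM in shNTC+Dox, against 74.2, 77.1 and 68.8 CPM in shEHD1+Dox, so every depleted library was above every control. Its mean rose from 57.5 ± 3.35 to 73.4 ± 4.20 CPM (log2 fold change 0.35, SE 0.08, adjusted p = 0.0165, 1.27-fold with a 95% interval of 1.13 to 1.44). Without shEHD1+Dox replicate 1 or replicate 2 its adjusted p was 0.0715 or 0.0507, at a similar size. PIK3CB (chr3:138652698-138834928), encoding the ubiquitous p110β, behaved alike with 37.9, 40.1 and 36.1 CPM against 48.4, 50.8 and 47.5 CPM. Here too the groups were apart, and the rise was 0.36 on the log2 scale (SE 0.07, adjusted p = 0.0118, 1.29-fold with an interval of 1.15 to 1.44).

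PIK3CD, encoding the p110δ subunit known mainly from leukocytes, was the scarcest of the 3 catalytic genes, at 4.22, 5.42 and 2.82 CPM in shNTC+Dox, against 7.16, 5.89 and 7.14 CPM in shEHD1+Dox. The groups did not overlap, yet the log2 difference of 0.69 had an SE of 0.23 and an adjusted p of 0.0755. DESeq2 gave 0.0392 for the same gene, and edgeR without shNTC+Dox replicate 2 gave 0.0388. The regulatory subunits, which stabilize p110 and bring it to phosphorylated receptors, overlapped between groups. PIK3R1, encoding p85α, had a mean of 126 ± 4.89 CPM in shNTC+Dox, against 120 ± 18.7 in shEHD1+Dox, with shEHD1+Dox replicates 1 and 2 at 102 and 140 CPM (log2 fold change -0.06, SE 0.11, adjusted p = 0.732). PIK3R2 and PIK3R3 differed by -0.17 and -0.14 (adjusted p = 0.324 and 0.551). None of the 3 regulatory genes reached an unadjusted p under 0.05, and DESeq2 called none of them.

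Expressed per kilobase of merged exon within each family, the shares of the catalytic subunits differed between groups by at most 1.32 percentage points. The ranking of PIK3CA and PIK3CB depends on the length used, since PIK3CA has 17189 merged exon bases but a longest transcript of 9259. PIK3CB has 7841 and 6259, and in CPM it was below PIK3CA in shNTC+Dox (38.0 against 57.5). PIK3CB contributed 56.2% ± 1.02 of the class I catalytic transcripts in shNTC+Dox, against 55.7% ± 0.621 in shEHD1+Dox, PIK3CA 38.8% ± 0.706 and 38.1% ± 0.886, and PIK3CD 4.97% ± 1.26 and 6.29% ± 0.859 (SD, n = 3, exact two-sided permutation p = 0.6, 0.4 and 0.2). With 3 libraries against 3 the smallest p this test can give is 0.1, so none of the 18 shares examined in the gene families could reach 0.05. The class II and class III kinases, which make other phosphoinositides for membrane traffic and autophagy, were PIK3C2A (0.15), PIK3C2B (-0.15), PIK3C3 (-0.03) and its partner PIK3R4 (-0.11). Their adjusted p ran from 0.237 to 0.794, and none had an unadjusted p under 0.05 or a call by DESeq2.

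INPP4B (chr4:142023160-142847432), which removes a phosphate from PI(3,4)P2 and thereby limits AKT docking, had the largest fold change among the 8 called genes. It stood at 9.99, 9.93 and 9.0 CPM in shNTC+Dox, against at 16.3, 18.6 and 17.0 CPM in shEHD1+Dox. The lowest depleted library was thus well above the highest control, and the mean rose from 9.64 ± 0.557 to 17.3 ± 1.17 CPM (log2 fold change 0.84, SE 0.11, adjusted p = 0.00194, 1.79-fold with an interval of 1.5 to 2.13). INPPL1, encoding SHIP2, which turns PIP3 into PI(3,4)P2, had 57.0, 55.1 and 33.8 CPM against 76.3, 68.7 and 81.0 CPM. Its groups were also apart, with shNTC+Dox replicate 3 far below the other controls, and the log2 difference of 0.63 (SE 0.19) had an adjusted p of 0.0553. Without that library the difference was 0.43 with an adjusted p of 0.00452, and DESeq2 on all 6 libraries gave 0.00295.

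PHLPP1 (chr18:62715541-62980433) encodes a phosphatase that dephosphorylates AKT. Its values were 16.8, 17.0 and 15.2 CPM in shNTC+Dox, against 22.0, 26.6 and 22.3 CPM in shEHD1+Dox. The groups did not overlap, replicate 2 was the highest of the depleted libraries, and the mean rose from 16.4 ± 0.984 to 23.6 ± 2.56 CPM (log2 fold change 0.53, SE 0.11, adjusted p = 0.0128, 1.44-fold). Its paralog PHLPP2 had overlapping groups at 29.8 ± 2.03 and 31.1 ± 2.66 CPM, a difference of 0.06 (adjusted p = 0.682).

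The adaptors that couple receptors to PI3K and RAS moved in opposite directions. SHC1 (chr1:154962298-154974395), a phosphotyrosine adaptor that binds IGF-1R and recruits GRB2, had 346, 340 and 325 CPM in shNTC+Dox but 254, 233 and 260 CPM in shEHD1+Dox. All depleted libraries were below all controls, and SHC1 fell by 0.44 on the log2 scale (SE 0.07, adjusted p = 0.00394, fold 0.738 with an interval of 0.663 to 0.822). GAB1 (chr4:143336876-143474565), a docking protein that carries PI3K binding sites, had 33.1, 36.1 and 28.4 CPM against 40.6, 50.9 and 40.9 CPM. The groups were apart, although replicate 2 was the highest library of each, and the rise was 0.44 (SE 0.12, adjusted p = 0.0373, 1.35-fold). The GAB1 call was lost without shNTC+Dox replicate 1 (adjusted p = 0.0864) and without shEHD1+Dox replicate 1, 2 or 3 (0.0685, 0.107 and 0.0742). GRB2 and SOS1, which link SHC1 to RAS, differed by -0.02 and 0.06 (adjusted p = 0.877 and 0.668).

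**Figure D2:**
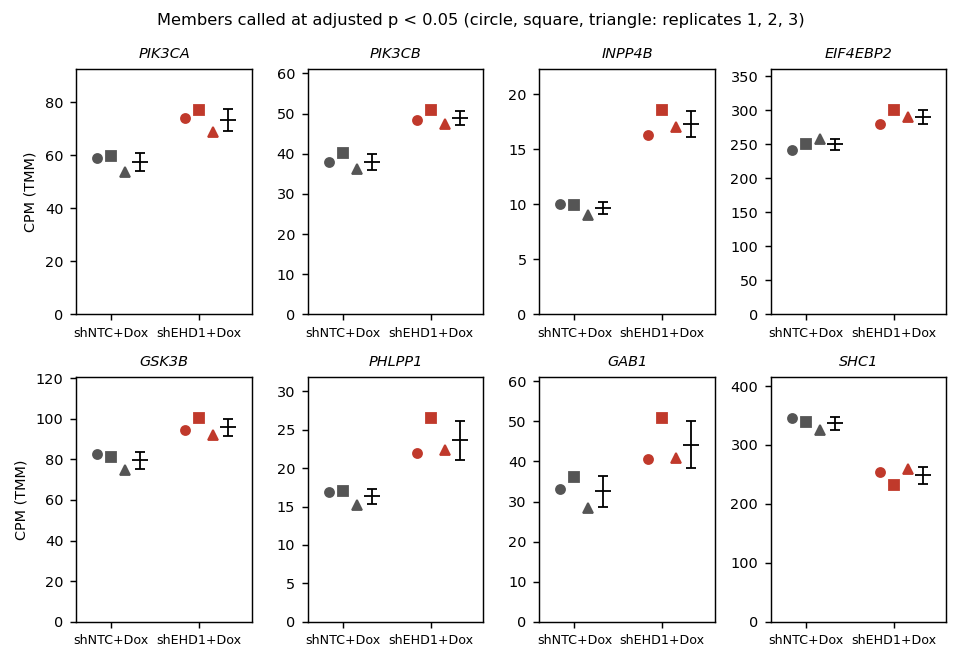
CPM (vertical axis, starting at 0) of the 8 called genes in each library, with circles, squares and triangles for replicates 1, 2 and 3 and bars for the mean and SD of 3 libraries. In every panel the shNTC+Dox and shEHD1+Dox points are separate, with shEHD1+Dox higher in all panels except SHC1.

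The remaining called genes, GSK3B and EIF4EBP2, had smaller changes. GSK3B (chr3:119821321-120094994), a kinase that AKT inhibits by phosphorylation, had 82.8, 81.0 and 74.8 CPM in shNTC+Dox, against 94.5, 100.5 and 92.1 CPM in shEHD1+Dox. It rose by 0.27 on the log2 scale (SE 0.07, adjusted p = 0.0336, 1.2-fold) with no overlap of the groups. EIF4EBP2 (chr10:70404145-70428618), which encodes 4E-BP2, a repressor of cap-dependent translation that mTORC1 phosphorylates, went from 242, 250 and 258 CPM to 280, 300 and 290 CPM. Its groups did not overlap either, and the rise was 0.21 (SE 0.06, adjusted p = 0.0473, 1.16-fold). Both calls lay close to the threshold. Leaving out any library other than shNTC+Dox replicate 3 gave 0.0682 to 0.103 for GSK3B and 0.0816 to 0.160 for EIF4EBP2. GSK3A, the other GSK3 gene, lay below the controls in all 3 depleted libraries (log2 fold change -0.18) without passing the test (adjusted p = 0.149).

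The promoters of the 4 genes called under every one of the 12 alternative settings (INPP4B, PHLPP1, PIK3CB and SHC1) and of PIK3CA are shown because these genes carry the differences described above. The sequences are from RefSeq on GRCh38.p14 and run 5′ to 3′ from 250 bases before to 50 bases after a RefSeq start. Where a gene has several RefSeq starts, the most 5′ of them was used. It can lie inside the gene span given above, which has another source, as it does for INPP4B and PIK3CA. Capitals mark the forkhead core GTAAACA and the ETS core CCGGAAG, searched on both strands, which appear as TGTTTAC and CTTCCGG where the match is on the other strand.
INPP4B (chr4:142846252-142846551, minus strand): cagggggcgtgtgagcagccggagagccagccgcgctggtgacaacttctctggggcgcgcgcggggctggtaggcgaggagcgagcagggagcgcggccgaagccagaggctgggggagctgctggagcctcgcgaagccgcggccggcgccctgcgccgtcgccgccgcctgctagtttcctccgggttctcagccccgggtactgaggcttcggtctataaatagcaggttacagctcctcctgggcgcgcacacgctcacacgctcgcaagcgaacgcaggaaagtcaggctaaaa
PHLPP1 (chr18:62715291-62715590, plus strand): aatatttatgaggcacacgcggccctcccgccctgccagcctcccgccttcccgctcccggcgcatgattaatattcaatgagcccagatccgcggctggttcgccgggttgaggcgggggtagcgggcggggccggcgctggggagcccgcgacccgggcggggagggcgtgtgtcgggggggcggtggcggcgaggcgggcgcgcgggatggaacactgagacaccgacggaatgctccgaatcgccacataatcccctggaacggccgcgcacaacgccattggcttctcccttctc
PIK3CB (chr3:138834879-138835178, minus strand): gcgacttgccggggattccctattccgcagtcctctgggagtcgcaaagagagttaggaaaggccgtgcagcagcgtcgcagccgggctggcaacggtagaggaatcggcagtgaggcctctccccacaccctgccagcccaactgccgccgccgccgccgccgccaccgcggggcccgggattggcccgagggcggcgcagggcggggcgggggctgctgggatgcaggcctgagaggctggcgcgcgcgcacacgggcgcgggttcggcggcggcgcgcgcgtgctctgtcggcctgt
SHC1 (chr1:154974327-154974626, minus strand): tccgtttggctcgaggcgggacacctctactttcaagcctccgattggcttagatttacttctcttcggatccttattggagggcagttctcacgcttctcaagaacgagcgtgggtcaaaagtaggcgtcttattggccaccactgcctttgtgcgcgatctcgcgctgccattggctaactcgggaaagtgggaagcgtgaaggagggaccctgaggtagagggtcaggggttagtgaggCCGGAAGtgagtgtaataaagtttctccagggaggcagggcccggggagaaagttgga
PIK3CA (chr3:179148107-179148406, plus strand): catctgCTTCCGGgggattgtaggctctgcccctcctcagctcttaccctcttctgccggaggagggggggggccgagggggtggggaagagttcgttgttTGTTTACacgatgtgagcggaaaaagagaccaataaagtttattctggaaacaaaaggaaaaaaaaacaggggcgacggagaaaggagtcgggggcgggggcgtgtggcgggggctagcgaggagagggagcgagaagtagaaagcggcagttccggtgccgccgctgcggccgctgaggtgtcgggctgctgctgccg

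The GC content of the printed windows was 68.7% for INPP4B, 69.3% for PHLPP1, 74.0% for PIK3CB, 55.0% for SHC1 and 60.7% for PIK3CA, beside a median of 58.3% over 27305 promoters. Of the 46 genes, 38 were matched to a promoter, including 7 of the 8 called. The ETS core was found in 10 of these 38 promoters (26.3%) and in 10.6% of all promoters, and among the called genes it was in those of PIK3CA, EIF4EBP2 and SHC1. The forkhead core was found in 1 member, PIK3CA, and in 3.44% of all promoters. A pair of GGAA repeats (GGAAGGAA, which can share letters with the ETS core) was found in 1 member, TSC1, and in 3.59% of all promoters. The E-box CACGTG was found in 4 members, TSC2, RRAGB, RRAGC and EIF4E, and in 7.41% of all. INPP4B, PHLPP1 and PIK3CB held none of these letters in their windows. These are counts of letters, which say nothing of binding.

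The central kinases of the pathway overlapped between groups. AKT1, the founding AKT kinase, had 128, 125 and 110 CPM in shNTC+Dox, against 124, 117 and 123 CPM in shEHD1+Dox. The log2 fold change was -0.00 (SE 0.08, adjusted p = 0.978), and the interval of the fold, 0.886 to 1.12, bounds the difference. AKT2, which is prominent in insulin signaling, had 136 ± 3.05 and 137 ± 8.39 CPM (log2 fold change 0.01, SE 0.07, adjusted p = 0.915, fold 0.907 to 1.12). PDPK1, the kinase of the AKT activation loop, had 61.4 ± 1.26 and 60.1 ± 2.48 CPM (-0.03, SE 0.07, adjusted p = 0.797). Of the AKT1 and AKT2 transcripts per kilobase of merged exon, AKT1 made up 56.3% ± 1.61 in shNTC+Dox, against 56.1% ± 0.758 in shEHD1+Dox. The exact permutation p was 0.8 (n = 3). Which gene leads depends on the length used, since AKT2 has 15902 merged exon bases but a longest transcript of 5250. AKT1 has 10955 and 8396, and in CPM it was below AKT2 in shNTC+Dox (121 against 136).

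MTOR itself, the catalytic subunit of both mTOR complexes, had 244, 239 and 210 CPM against 228, 232 and 221 CPM, with the depleted libraries inside the range of the controls (log2 fold change -0.02, SE 0.07, adjusted p = 0.850). RPTOR, the scaffold of mTORC1, had 75.9 ± 8.02 and 71.8 ± 6.13 CPM (-0.08, SE 0.10, adjusted p = 0.614). RICTOR, the scaffold of mTORC2, had 58.6, 55.9 and 29.9 CPM against 51.2, 50.8 and 51.8 CPM. The low value of shNTC+Dox replicate 3 set the fitted difference of 0.09 (SE 0.24, adjusted p = 0.830), and without that library it was -0.16 (adjusted p = 0.0935). Among the other subunits, MLST8 and AKT1S1 had differences of -0.12 and -0.11, MAPKAP1 of 0.05 and DEPTOR of 0.07. The adjusted p of the 7 mTOR genes ran from 0.426 to 0.885, with no unadjusted p under 0.05 and no call by DESeq2.

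The switches that feed mTORC1 showed differences of at most 0.31 on the log2 scale. TSC1 and TSC2 form the complex that turns RHEB off. TSC1 had 59.0, 56.9 and 54.9 CPM against 52.3, 53.5 and 53.4 CPM, so all depleted libraries were lower, but the difference of -0.10 (SE 0.07) had an adjusted p of 0.326. TSC2 had 68.5 ± 1.5 and 71.6 ± 1.26 CPM (0.06, SE 0.06, adjusted p = 0.531), and RHEB, the small GTPase that activates mTORC1, had 74.3 ± 4.43 and 75.7 ± 5.34 CPM (0.03, SE 0.08, adjusted p = 0.846). TBC1D7, the smallest subunit of the TSC complex, lay above the controls in all depleted libraries, at 17.0 ± 1.05 and 21.1 ± 1.61 CPM (0.31, SE 0.10, adjusted p = 0.0673). DESeq2 called none of these 4 genes.

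The RAG GTPases work as pairs of RRAGA or RRAGB with RRAGC or RRAGD. RRAGA had 57.4, 58.9 and 58.8 CPM in shNTC+Dox, against 64.2, 69.9 and 71.4 CPM in shEHD1+Dox. The groups were separate, but the difference of 0.23 (SE 0.07) narrowly missed the threshold in edgeR (adjusted p = 0.0525) while DESeq2 gave 0.0329. RRAGB lay above the controls in all depleted libraries and RRAGC below them, with differences of 0.24 (adjusted p = 0.205) and -0.11 (0.307), and RRAGD overlapped at 0.27 (0.274). Within the RAG transcripts per kilobase, the share of RRAGC was 13.8%, 14.2% and 14.2% in shNTC+Dox, against 12.1%, 11.3% and 10.7% in shEHD1+Dox. The depleted libraries were all lower, by 2.68 percentage points on average, at the smallest p the design allows (exact permutation p = 0.1, Benjamini-Hochberg adjusted p = 0.6 over 18 shares). Without division by exon length the difference in this share was -4.77 points.

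The outputs of mTORC1 to translation, other than EIF4EBP2, did not pass the test. RPS6KB1, encoding S6K1, had 85.1, 84.5 and 89.2 CPM against 80.7, 104.7 and 79.7 CPM, with shEHD1+Dox replicate 2 above all other libraries (0.03, SE 0.11, adjusted p = 0.858). RPS6, the ribosomal protein that S6 kinases phosphorylate, had 1951, 1952 and 1640 CPM against 1928, 1553 and 1899 CPM, overlapping (-0.04, SE 0.11, adjusted p = 0.819). EIF4EBP1, encoding 4E-BP1, had 106 ± 5.48 and 111 ± 10.8 CPM (0.06, SE 0.09, adjusted p = 0.656). RPS6KB2, encoding S6K2, and EIF4E, the cap-binding protein that 4E-BPs sequester, lay below the controls in all depleted libraries, with differences of -0.15 and -0.12 (adjusted p = 0.323 and 0.214). EIF4EBP1 made up 78.3% ± 0.335 of the 4E-BP1 and 4E-BP2 transcripts per kilobase in shNTC+Dox, against 76.3% ± 2.39 in shEHD1+Dox. All 3 depleted libraries were lower, mainly through replicate 2 at 73.6%, and the exact permutation p was 0.1 (adjusted p = 0.6).

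SGK1, a kinase activated by PDPK1 and mTORC2 and strongly inducible in many cells, depended on a single control library. Its values were 11.7, 9.28 and 28.1 CPM in shNTC+Dox, against 21.0, 23.5 and 19.2 CPM in shEHD1+Dox. shNTC+Dox replicate 3 was 2.68 times the mean of the other 2 controls and above all depleted libraries, so the groups overlapped. The log2 difference of 0.38 (SE 0.42) had an adjusted p of 0.586, whereas without that library it was 1.02 with an adjusted p of 0.000940. SGK3 differed by -0.24 (adjusted p = 0.186), and by -0.34 (0.0339) without the same library. Leaving out shNTC+Dox replicate 3 also brought INPPL1 and RRAGA past the threshold and raised the number of called members from 8 to 12, with 21.5% of all genes called in that fit. This library was the lowest control for 25 of the 46 genes and the highest for 15.

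**Figure D3:**
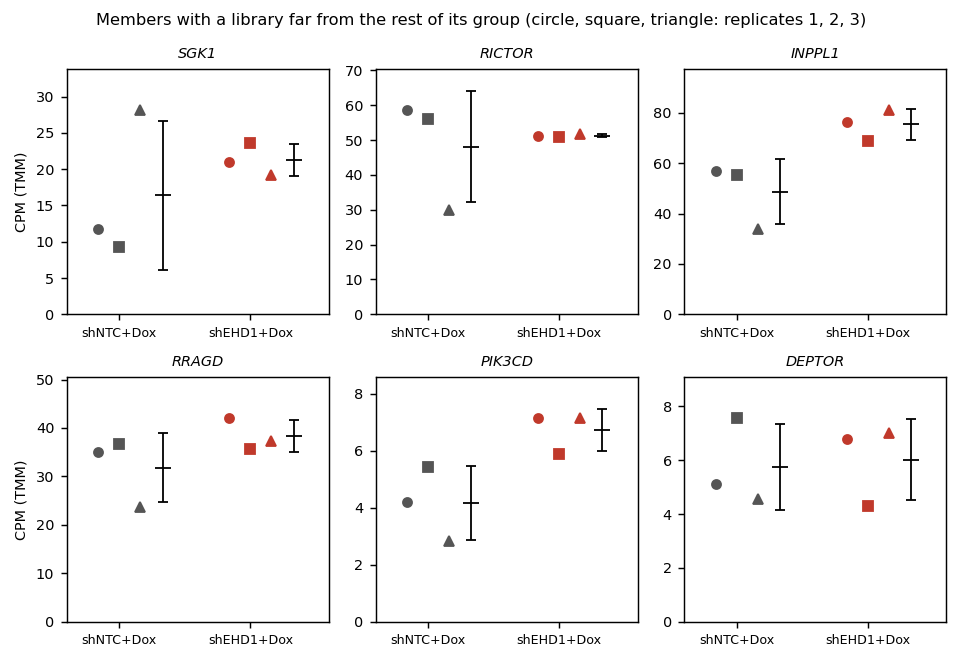
CPM (vertical axis, starting at 0) of 6 genes with a library far from the rest of its group, with circles, squares and triangles for replicates 1, 2 and 3 and bars for the mean and SD of 3 libraries. shNTC+Dox replicate 3 (gray triangle) is far above the other controls for SGK1 at 28.1 CPM and far below them for RICTOR at 29.9 CPM and INPPL1 at 33.8 CPM.

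Levels between genes were compared as CPM per kilobase of merged exon. In shNTC+Dox the pathway spanned from 685 ± 66.5 for RPS6 down to 0.434 ± 0.136 for PIK3CD, with a median of 6.73. EIF4EBP1 (120 ± 6.23) and SHC1 (77.6 ± 2.55) followed RPS6, so the only member that fell was also the third most abundant. RRAGA (36.5 ± 0.52) and EIF4EBP2 (33.4 ± 1.07) came next. Their places depend on the length used, since MLST8 and EIF4E have 4360 and 4971 merged exon bases but longest transcripts of 2116 and 2427. For RRAGA and EIF4EBP2 both lengths are equal. At the low end INPP4B (0.662 ± 0.0382) and SGK1 (1.64 ± 1.03) were just above PIK3CD. INPP4B, whose rise was the largest of the called genes, was therefore among the scarcest transcripts of the pathway, and its counts were nevertheless sufficient, since the lowest count of any member in any library was 63. The spread of SGK1 was wide enough that its place among its neighbors cannot be given.

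**Figure D4:**
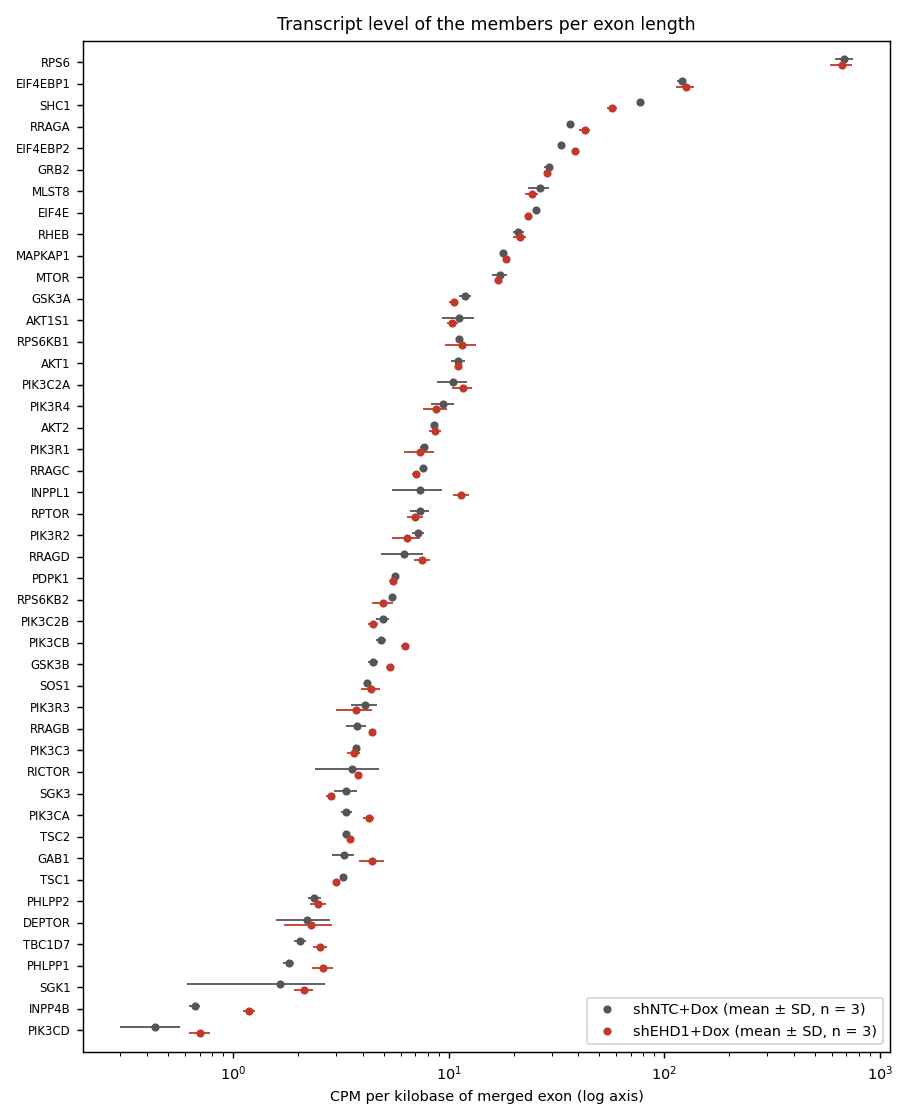
Mean level (CPM per kilobase of merged exon, log axis) of the 46 genes in shNTC+Dox (gray) and shEHD1+Dox (red), with the SD of 3 libraries. Genes are ordered by shNTC+Dox, where RPS6 is at the top at 685 and PIK3CD at the bottom at 0.434.

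Reads of several members cannot be separated from those of neighboring genes, since the library kit does not keep strand and 29 of the 46 genes share exon bases with another gene, 12 of them over 10% of their own. PIK3CA shares 19.8% with KCNMB3 on the opposite strand, which had at most 52 counts per library, and the summed CPM of both differed by 0.34, close to PIK3CA alone. SHC1 shares 15.2%, divided about evenly between PYGO2 on the same strand and ENSG00000271380 on the other, which had at most 6 counts per library. PYGO2 was itself lower (log2 fold change -0.32, adjusted p = 0.0222), and the sum of SHC1 and PYGO2 differed by -0.42. PIK3R2 is the most uncertain member, since it shares 76.4% of its exon bases with ENSG00000268173 on the same strand. That gene was higher in shEHD1+Dox (0.51, adjusted p = 0.0199), so the sum of both differed by 0.22 although PIK3R2 alone differed by -0.17. Shared exon bases also made up a sizable part of SGK3 (44%, with a readthrough gene), PDPK1 (23.7%), RRAGC (23.1%) and PIK3R3 (17.5%).

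Beyond the core, 141 genes of 12 neighboring lists were examined. The lists were chosen with earlier results of these data known, so their shares beside all genes are descriptions and not tests. Of the 129 genes tested, 24 rose (18.6%, against 8.59% of all genes) and 11 fell (8.53%, near the 8.75% of all genes). Without shEHD1+Dox replicate 1 these counts were 10 and 4, and without replicate 3 they were 11 and 4. Without shNTC+Dox replicate 1, 14 rose, and without shNTC+Dox replicate 2, 15 rose and 6 fell. In the same order, these fits called 7.74%, 7.77%, 9.97% and 12.1% of all genes. Upstream, IGF1R, the receptor at the center of the study, had 113, 115 and 105 CPM in shNTC+Dox, against 121, 134 and 126 CPM in shEHD1+Dox. Its depleted libraries were all higher, but the difference of 0.19 (SE 0.07) did not pass the test (adjusted p = 0.0960). None of the 4 tested insulin and IGF receptor or IRS adaptor genes was called by edgeR or DESeq2 on all 6 libraries, with 1 at an unadjusted p under 0.05. Without shNTC+Dox replicate 3, edgeR called IRS1, an adaptor of these receptors, as lower (-0.29, adjusted p = 0.00706). Among 9 other receptor adaptors, edgeR called 22.2% as higher and 11.1% as lower, against 8.59% and 8.75% of all genes. GAB2, a relative of GAB1, rose (0.82, adjusted p = 0.00663), as did SOS2 (0.32, 0.0267). GRB14, an inhibitor of the insulin receptor, fell by 1.01 (adjusted p = 0.0205). SOS2 was no longer called when shNTC+Dox replicate 1 or any shEHD1+Dox library was left out (adjusted p 0.0523 to 0.104), nor was GRB14 when any library other than shNTC+Dox replicate 3 was left out (0.0502 to 0.087).

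INPP5D, which encodes SHIP1, the hematopoietic relative of INPPL1, rose by 1.23 from 3.62 ± 0.849 to 8.54 ± 0.802 CPM (adjusted p = 0.00446) and was the only one of 8 other inositol lipid phosphatases that edgeR called on all 6 libraries, with SYNJ2 added without shNTC+Dox replicate 3 (0.51, adjusted p = 0.00135). BECN1, the autophagy partner of PIK3C3, fell by 0.49 (adjusted p = 0.00316) and was the only one of 6 other PI3K subunits and binders that edgeR called on all 6 libraries. DESeq2 also called PIK3IP1 (0.0462), and edgeR without shNTC+Dox replicate 3 also called PIK3CG (0.0486), both named here after their values were seen. Of 13 regulators of AKT, TRIB2, a pseudokinase that binds AKT, fell by 1.05 from 65.0 ± 5.57 to 31.3 ± 2.42 CPM (adjusted p = 0.000269), and PPP2R1A, the scaffold of the phosphatase PP2A, rose by 0.28 (adjusted p = 0.0224). DESeq2 also called TRIB1, which was lower (0.0162), and TRIB3, which was higher (0.0370), and so did edgeR without shNTC+Dox replicate 3 (-0.81 with an adjusted p of 0.000156, and 0.31 with 0.0323). The PPP2R1A call was lost when any library other than shNTC+Dox replicate 3 and shEHD1+Dox replicate 2 was left out (0.0746 to 0.101). On all 6 libraries edgeR called 7.69% of the regulators of AKT as higher and 7.69% as lower. These shares were near the 8.59% and 8.75% of all genes. None of 7 other mTOR complex factors and none of 6 AMPK and LKB1 genes was called by edgeR or DESeq2 on all 6 libraries, with 1 and 2 genes at an unadjusted p under 0.05. Without shNTC+Dox replicate 3, edgeR called PRKAB2, a subunit of AMPK, as lower (-0.42, adjusted p = 0.00573).

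In the amino acid branch above the RAG GTPases, 7 of 27 Ragulator, GATOR and amino acid sensor genes rose (25.9%, against 8.59% of all genes) and 3 fell (11.1%, near the 8.75% of all genes), with a median log2 fold change of 0.00107. SESN2, a stress-inducible leucine sensor that restrains mTORC1, rose by 1.29 from 13.1 ± 2.77 to 32.2 ± 1.85 CPM (adjusted p = 0.000960). KICS2, part of the KICSTOR complex that tethers GATOR1 to the lysosome, rose by 0.53 (adjusted p = 0.00571). LAMTOR1, the lipid-anchored subunit that holds Ragulator on the lysosome, fell by 0.76 from 66.7 ± 4.12 to 39.4 ± 1.81 CPM (adjusted p = 0.000543). Without shNTC+Dox replicate 2, shEHD1+Dox replicate 1 or shEHD1+Dox replicate 3, 4 genes of this list rose and 1 fell, and without shNTC+Dox replicate 1, 5 rose and 1 fell. These fits called 7.74% to 12.1% of all genes. SESN2, KICS2 and LAMTOR1 were called under all 12 alternative settings.

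Downstream, the list of FOXO factors, which AKT keeps out of the nucleus, and of genes known as FOXO targets had 7 of 15 tested genes higher (46.7%, against 8.59% of all genes) and 1 lower, with a median log2 fold change of 0.33. TXNIP, an inhibitor of thioredoxin and glucose uptake, rose by 0.90 (adjusted p = 0.0217), with shNTC+Dox replicate 3 the lowest control at 12.2 CPM against 21.8 and 20.9. GADD45A, a growth arrest gene, rose by 0.86 (adjusted p = 0.00126). BCL6, a transcriptional repressor usually counted among genes that FOXO factors induce, fell by 0.99 (adjusted p = 0.000440). Only 3 of the 15 were higher without shEHD1+Dox replicate 1 or without replicate 3, and TXNIP was then not called (adjusted p = 0.0772 and 0.0776). These fits called 7.74% and 7.77% of all genes. Many of these genes are also known to respond to other stress pathways. The list was chosen with earlier results of these data known, and no set test was made.

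Of 14 cap-dependent translation factors, 3 rose (21.4%, against 8.59% of all genes) and 1 fell (7.14%, near the 8.75% of all genes). EIF4EBP3, the third 4E-BP gene, rose by 0.97 at a low level (1.90 ± 0.236 to 3.71 ± 0.757 CPM, adjusted p = 0.0222), PDCD4, an inhibitor of the helicase EIF4A, rose by 0.57 (98.9 ± 1.78 to 147 ± 1.2 CPM, adjusted p = 0.000592), and EIF4A2 rose by 0.41 (adjusted p = 0.0360). EIF4EBP3 shares 73.2% of its exon bases with the readthrough gene ANKHD1-EIF4EBP3 on the same strand, so its value may not be the gene's own, and PDCD4, EIF4A2 and BECN1 share 29.5%, 17.9% and 17.1% of theirs with other genes. The EIF4EBP3 call was lost when shNTC+Dox replicate 1 or 2 or shEHD1+Dox replicate 1 or 3 was left out (adjusted p 0.0538 to 0.0993), and the EIF4A2 call without shNTC+Dox replicate 1 or 3 or shEHD1+Dox replicate 1 or 3 (0.0682 to 0.135). Of 8 ULK complex and TFE genes, RB1CC1 (0.39, adjusted p = 0.0108) and ULK1 (0.37, 0.0305), which start autophagy, rose (25.0%, against 8.59% of all genes). DESeq2 called 3 genes of the list, all higher, where it called 21.5% of all genes in either direction. ULK1 was not called when any library other than shNTC+Dox replicate 3 was left out (0.0722 to 0.115), and RB1CC1 was not without shEHD1+Dox replicate 1 (0.0525). Of 12 serine, one-carbon and amino acid genes that mTORC1 promotes through ATF4, SLC7A5 and SLC3A2, which together form the leucine transporter LAT1, fell by 0.63 and 0.47 (adjusted p = 0.0132 and 0.0167), PSPH fell by 0.30 (0.0432) and 1 rose. The lower share was 25.0%, against 8.75% of all genes, and the higher share 8.33%, near the 8.59% of all genes. The SLC7A5 and SLC3A2 calls were lost without shEHD1+Dox replicate 1 (0.0626 and 0.0734) or replicate 3 (0.0618 and 0.0767), and the PSPH call without shNTC+Dox replicate 2 or any shEHD1+Dox library (0.0795 to 0.153).

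**Figure D5:**
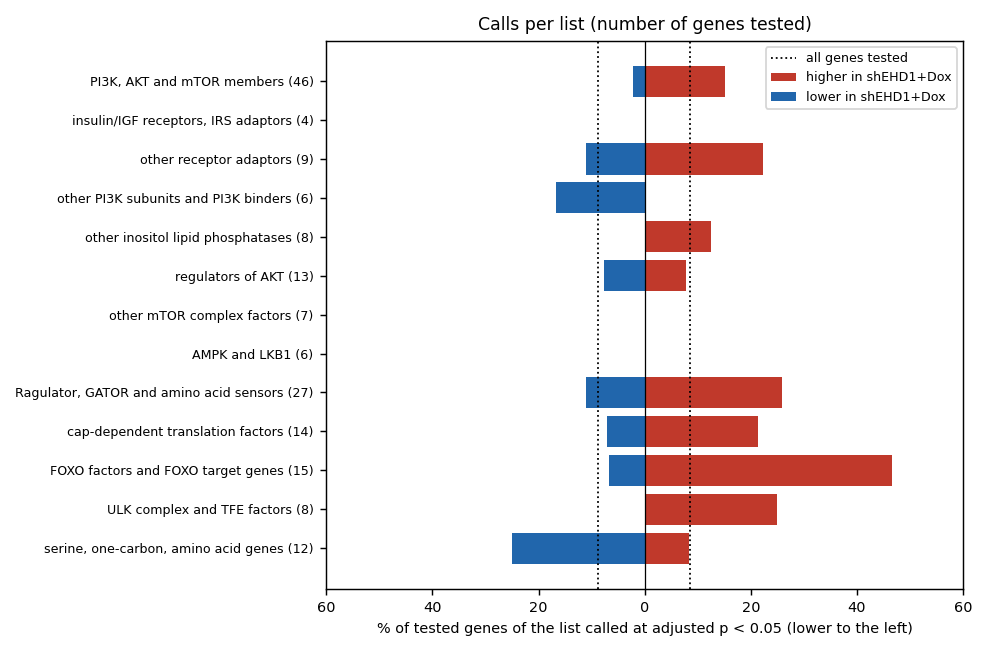
Share of the tested genes of each list called at an adjusted p under 0.05 (horizontal axis, percent, higher in shEHD1+Dox to the right and lower to the left), with the number tested in parentheses and dotted lines for all genes tested (8.59% higher, 8.75% lower). The FOXO list has the longest bar to the right at 46.7%, and the 46 core genes reach 15.2% to the right and 2.17% to the left.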

How the data were processed

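RNA-seq libraries of TC71 cells, 3 shNTC+Dox and 3 shEHD1+Dox, were grouped by their sample labels. The study's methods name hisat2 as the aligner, StringTie for quantification, and Ensembl gene models on hg38. The submitters' processing notes name STAR 2.7.3a and DESeq2. The deposited values were raw whole-number counts per gene, and how they were derived, or shared between overlapping genes, is not given in the sources used here.

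Genes needed a count of 10 or more in 3 or more libraries, and the counts of the 16785 that passed were scaled by TMM and tested with edgeR 4.0.16 (robust quasi-likelihood) in R 4.3.3, with Benjamini-Hochberg adjustment over all genes. Family shares used exact two-sided permutation tests. Depth (22711235 to 30582187 counts) limits precision by counting error only. Gene models came from GENCODE 44 on GRCh38, where 99.5% of identifiers were found. Alternatives were other scalings and filters, the Wald test of DESeq2 1.42.0, a replicate block and each library left out. Scripts were tested on simulated data.

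Members and lists were chosen with earlier results of these data known. Every member is accounted for. Full statistics are given for members at an adjusted p under 0.05 and for central components (PIK3CA, PIK3R1, PDPK1, AKT1, AKT2, MTOR, RPTOR, RICTOR, TSC1, TSC2, RHEB, RPS6KB1, EIF4EBP1, RPS6). Of the genes called in the main fit, at most 3 with the largest change are named per neighboring list, with EHD1 and IGF1R always named. IRS1, SYNJ2, TRIB1, TRIB3, PRKAB2, PIK3IP1 and PIK3CG were called only under alternatives and are named after their values were seen. Other genes of the neighboring lists called only under alternatives are not named.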

Additional observations from a re-analysis of the deposited data

How the results depend on the processing

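PIK3CB, INPP4B, PHLPP1 and SHC1 were called in the same direction under all 12 alternatives, and none of the 8 called members changed sign under any. PIK3CA, GSK3B, EIF4EBP2 and GAB1 lost their calls under some, as given above, and EIF4EBP2 also under DESeq2's size factors (adjusted p = 0.0503) and without a filter (0.0506). Called members numbered 7 with DESeq2's size factors (15.2%, against 17.2% of all genes) and 11 with library size alone (23.9%, against 17.7%). Without a filter they numbered 7 (15.2%, against 8.35%), and with at least 10 counts in every library 10 (21.7%, against 21.1%). The DESeq2 test called 11 (23.9%, against 21.5%). The causes were not tested.

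The replicate numbers did not pair the libraries (correlations of same-numbered deviations 0.0720, -0.0593 and -0.0448). With the replicate block 6 members (without GSK3B, adjusted p = 0.0664, and EIF4EBP2, 0.107), 1766 of all genes (2910 without the block), and 15 higher and 6 lower genes of the neighboring lists were called. The lower count of the neighboring lists was 7 with library size alone and 7 without a filter.

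Leaving out each library in turn gave 1299 to 3615 called genes, 299 to 470 of them past 2-fold, 3 to 10 higher, 1 to 2 lower and 0 to 1 2-fold changed members (SGK1, without shNTC+Dox replicate 3), and 10 to 28 higher and 4 to 15 lower genes in the neighboring lists. The lowest counts of called members (4) came without shEHD1+Dox replicate 1 and without replicate 2. Members near 0 changed sign in these fits, with log2 fold changes of -0.18 to 0.0444 for PIK3R1, -0.0673 to 0.0383 for AKT1, -0.0188 to 0.0623 for AKT2, -0.0875 to 0.0163 for MTOR, -0.14 to 0.00925 for RPTOR, -0.16 to 0.25 for RICTOR, -0.0311 to 0.0745 for RHEB, -0.11 to 0.10 for RPS6KB1, -0.12 to 0.0505 for RPS6, -0.074 to 0.32 for DEPTOR, -0.19 to 0.0382 for AKT1S1, -0.00612 to 0.12 for PHLPP2, -0.051 to 0.0226 for GRB2 and -0.00973 to 0.13 for SOS1. Library size alone turned PDPK1 to 0.0086, AKT1 to 0.0342, MTOR to 0.0136, PIK3C3 to 0.00499 and GRB2 to 0.0203, and testing without a filter turned AKT1 to 0.0129. Without division by exon length the RRAGC share differed by -4.77 points.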
